A study of Arabidopsis thaliana with 6 samples.

Results

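AT1G73490 and AT1G73530 are neighbouring Arabidopsis thaliana genes on chromosome 1 that encode RNA-binding proteins. They are 2 of 13356 genes measured by a probe set of their own. Each was read by the 1 probe set that names it alone, out of 22746 probe sets tested and 13513 that name 1 gene. The platform annotation used here does not list 8730 of the tested probe sets. A gene not counted as measured may therefore still have a probe set on the array. AT1G73490 and AT1G73530 were picked from the contrast of epiF3 with wild type, in which both were lower. Their own differences in that contrast are therefore a description, given without a test.

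The data were 6 Affymetrix arrays, each with biotin-labelled RNA from the aerial part of 30-day-old plants. The epiF3 group had 3 arrays of plants whose titles and source names call them epiF3, with ecotype Col-0. Their description field instead speaks of albino msh1 mutants. How these names relate is not settled by the labels, so the group is called epiF3. The wild-type group had 3 arrays of Col-0 plants, and plants of both groups grew in metro mix with 12 h of daylight at 22 °C. Per the labels' protocols RNA was taken from each plant, and the titles call the arrays biological replicates. In whole aerial tissue, fewer cells of a type and less RNA per cell cannot be told apart.

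Proteins with an RNA recognition motif (RRM) bind single-stranded RNA through a small fold and take part in splicing, transport, stability and editing of transcripts. In plant plastids and mitochondria, editing turns chosen cytidines of transcripts into uridines. It needs a pentatricopeptide repeat (PPR) protein that recognises the site, MORF proteins that partner it, and for many sites an organelle RRM protein (ORRM). AT1G73530 is known as ORRM6, a plastid protein needed to edit sites in psbF, which encodes a subunit of cytochrome b559 in photosystem II, and in accD, which encodes a subunit of acetyl-CoA carboxylase. A specific role of AT1G73490 is not stated here. An expression array measures transcript level, not editing.

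Signals are log2 values, so 1 unit is a doubling. AT1G73490 had 2.84, 2.84 and 3.93 on epiF3 replicates 1, 2 and 3, against 7.71, 7.73 and 7.85 on wild-type replicates 1, 2 and 3. All epiF3 arrays lay below all wild-type arrays, with 3.78 log2 units between the nearest 2 arrays. The epiF3 mean was 3.21 ± 0.63 and the wild-type mean 7.76 ± 0.076 (SD, n = 3 each). The difference of epiF3 minus wild type was -4.56 with a standard error of 0.28, a 23.5-fold lower signal. Taken array by array, the wild-type mean was 30.3 times the signal of epiF3 replicates 1 and 2 and 14.2 times that of epiF3 replicate 3. Only 4 of the 22746 probe sets, AT1G73490 included, had a difference at least as negative, and 3 of these name 1 gene.

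The place of AT1G73490 within each array moved in the same way. On epiF3 replicates 1 and 2, 33.9% of probe sets were at or below its signal, and on epiF3 replicate 3 the share was 48.2%. On wild-type replicates 1, 2 and 3 these shares were 90.6%, 90.9% and 91.9%. The transcript thus ranked well above the median of each wild-type array and below the median of each epiF3 array.

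AT1G73490 was uniform among wild-type arrays and less so among epiF3 arrays. Its wild-type values spanned 0.14 log2 units, and 19.3% of probe sets had a smaller wild-type SD. Its epiF3 values spanned 1.09, and 97.5% of probe sets had a smaller epiF3 SD. Replicates 1 and 2 carried exactly the same deposited value, as they did for 208 probe sets (0.914%) whose values ran from 1.63 to 11.02 with a median of 2.64. Whether that shared value is a lower limit set by the array processing was not tested.

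The span among epiF3 arrays came from epiF3 replicate 3, which was 1.09 above the mean of the other epiF3 arrays. That array also stood apart from the rest of the series: hybridization controls averaged 10.53 on it, against 8.19 and 8.36 on the other epiF3 arrays and 7.11 to 8.21 on wild-type arrays. Its 10th percentile of signal was 2.12, against 1.93 to 1.99 elsewhere, and its median 4.08, against 4.25 to 4.32. In the alternative fit with limma array weights it had the lowest weight, 0.305, against 0.712 to 1.86 for the other arrays. A shift of 1.09 or more was uncommon among dim probe sets on the array. Of 1701 other probe sets between 2.5 and 3.2 on epiF3 replicates 1 and 2, a window chosen after the values were seen, 33 (1.94%) were at least as much higher on replicate 3. Their median shift was 0.0, with a 5th percentile of -0.59 and a 95th percentile of 0.78. Without epiF3 replicate 3 the difference of AT1G73490 was -4.92. What part the array had in the value of 3.93 was not tested.

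AT1G73530 had 5.03, 5.40 and 5.08 on epiF3 replicates 1, 2 and 3, against 6.52, 6.69 and 6.17 on wild-type replicates 1, 2 and 3. Every epiF3 array again lay below every wild-type array, here with 0.77 log2 units between the nearest values. Its epiF3 mean was 5.17 ± 0.20 and its wild-type mean 6.46 ± 0.26 (SD, n = 3 each). The difference was -1.28 with a standard error of 0.18, a 2.44-fold lower signal. The wild-type mean was 2.68, 2.08 and 2.59 times the signal of epiF3 replicates 1, 2 and 3. This gene stayed well above the dim end of the arrays, with 59.4%, 64.4% and 62.3% of probe sets at or below it on the epiF3 arrays and 79.7%, 81.9% and 75.4% on the wild-type arrays.

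Among replicates the 2 genes behaved differently. On epiF3 replicate 3, where AT1G73490 was 1.09 above the other epiF3 arrays, AT1G73530 had a shift of -0.13. The wild-type array with the highest AT1G73490, replicate 3, had the lowest AT1G73530. AT1G73530 varied more than AT1G73490 in wild type, where its values spanned 0.52 and 77.1% of probe sets had a smaller SD. It varied less in epiF3, with a span of 0.37 and 54.6% of probe sets having a smaller SD. The difference of AT1G73490 minus that of AT1G73530 was -3.27 log2 units, so that its fold was 9.66 times as large. Differences as negative as that of AT1G73530 were found for 200 probe sets, 98 of which name 1 gene, and 107 probe sets had a difference as large in the other direction.

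**Figure D1:**
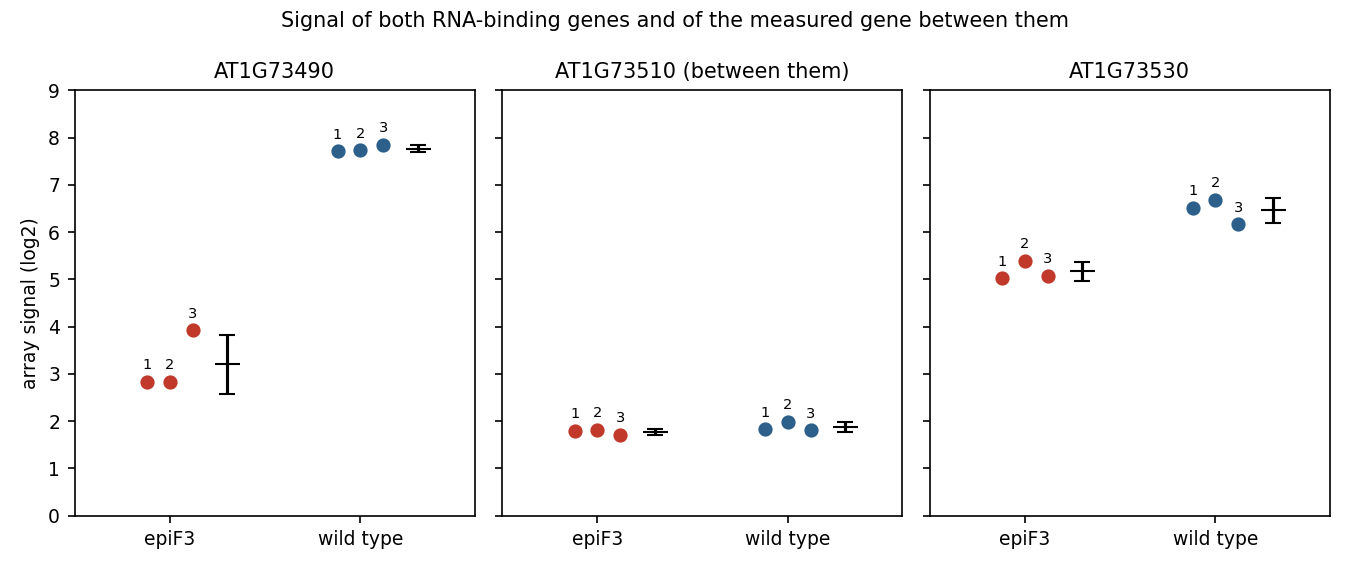
Array signal (log2) of AT1G73490, of AT1G73510, the measured gene that lies between both RNA-binding genes, and of AT1G73530 on each of 3 epiF3 and 3 wild-type arrays; points are arrays with their replicate number, and the bar beside them is the mean ± SD. AT1G73490 sits at 2.84 to 3.93 in epiF3 and 7.71 to 7.85 in wild type, AT1G73530 at 5.03 to 5.40 and 6.17 to 6.69, and AT1G73510 near 2 in both.

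In the comparison over all probe sets, limma put 75 probe sets (0.330%) lower and 61 (0.268%) higher in epiF3 at a Benjamini-Hochberg adjusted p under 0.05. Both genes were among the 75, which is how they came to be chosen, and nothing is read from that. AT1G73490 was also among the calls under all 14 alternative settings. AT1G73530 was among them under 9 of 14, and with 1 array left out it was called only without wild-type replicate 3. Its difference ran from -1.43 to -1.17 over those fits. All alternatives reuse the arrays from which the pair was chosen, so these calls are a description and no test of either gene. Complete separation of the groups was common, with all epiF3 arrays below all wild-type arrays for 7.11% of probe sets and above them for 9.75%.

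Measured genes next to this pair did not pass the limma threshold, which 0.598% of all probe sets passed. In the order of the RefSeq gene table of assembly TAIR10.1, 3 annotated genes lie between AT1G73490 and AT1G73530. They are MKK9, a MAP kinase kinase gene, a long non-coding RNA gene and AT1G73510. Only AT1G73510 has a probe set that names it alone in the annotation used here. The other 2 are not analysed here, and may have probe sets that this annotation does not list. AT1G73510 had 1.80, 1.82 and 1.71 on epiF3 arrays, against 1.83, 1.99 and 1.81 on wild-type arrays. The groups overlapped, and on 5 of 6 arrays the signal was under the 10th percentile of the array. At this dim level its difference was -0.10 with a standard error of 0.12 (limma adjusted p = 0.791).

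Just before AT1G73490, the nearest measured gene was AT1G73480. It had 6.30, 6.55 and 6.76 on epiF3 arrays, against 5.59, 6.97 and 7.05 on wild-type arrays. The epiF3 mean was 6.54 ± 0.23 and the wild-type mean 6.54 ± 0.82 (SD, n = 3 each), and the epiF3 values lay inside the wild-type range (limma adjusted p = 0.998, SE 0.37). The next gene outward, AT1G73470, had 7.06, 6.92 and 6.89 on epiF3 arrays, against 6.74, 7.01 and 7.24 on wild-type arrays. It too overlapped between groups, with a difference of -0.04 and a standard error of 0.16 (limma adjusted p = 0.942). The third, AT1G73440, had a difference of -0.21 with a standard error of 0.15 (limma adjusted p = 0.663). AT1G73480 and AT1G73470 were both well above the dim end of the arrays, and neither passed the test. Of the 21 neighbours described here, AT1G73480 had the largest wild-type SD. Its difference was -0.48 with wild-type replicate 1 left out, and 0.25 if wild-type replicate 3 was dropped instead.

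Beyond AT1G73530, the nearest measured genes AT1G73560 and AT1G73570 were dim. AT1G73560 had 2.08, 2.08 and 2.33 on epiF3 arrays, against 1.99, 2.08 and 2.09 on wild-type arrays. AT1G73570 had 3.18, 2.98 and 3.42 on epiF3 arrays, against 3.03, 3.08 and 3.00 on wild-type arrays. Both overlapped between the groups, with differences of 0.11 and 0.16 (limma adjusted p = 0.789 and 0.718). The third gene outward, AT1G73600, had 9.38, 9.01 and 8.61 on epiF3 arrays, against 10.17, 9.61 and 9.41 on wild-type arrays. Its groups did not overlap, by 0.03 log2 units, and its difference of -0.73 with a standard error of 0.25 did not pass (limma adjusted p = 0.328).

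Over the window of AT1G73510 and the 10 nearest measured genes on each outer side, 0 of 21 neighbours passed the limma threshold, against 0.598% of all probe sets. Trended and robust moderation also gave 0, and 1 of 21, AT1G73600, had an unadjusted p under 0.05, against 10.9% of all probe sets. Differences ran from -0.73 to 0.33. The median was 0.03 among the neighbours and 0.03 over all probe sets. Of the 21, 11 were positive and 10 negative, and 2 had groups that did not overlap (AT1G73600 lower and AT1G73610 higher in epiF3), against 16.9% of all probe sets. A probe set that names both AT1G73450 and AT1G73460, close to AT1G73490, had a difference of -0.31 with a standard error of 0.22 and overlapping groups (limma adjusted p = 0.658). The window spans 42 protein-coding genes of the RefSeq table, of which 23, the pair included, were measured under a name of their own.

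**Figure D2:**
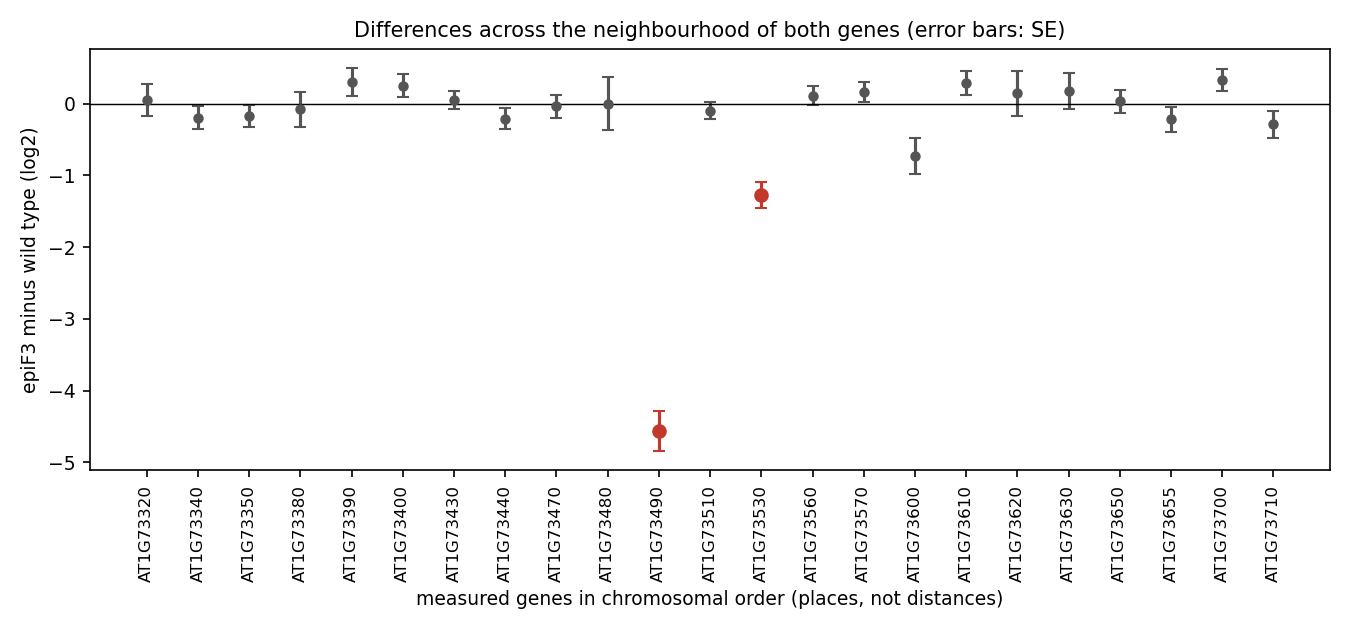
Difference of epiF3 minus wild type (log2, limma, bars are SE, 3 arrays a group) for both RNA-binding genes in red and for 21 measured neighbours in grey, in chromosomal order by place. AT1G73490 (-4.56) and AT1G73530 (-1.28) were chosen from this same contrast. The neighbours run from -0.73 to 0.33, and AT1G73510, between the pair, is at -0.10.

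Some called genes lay close together, where 0.598% of all probe sets were called. Among 13217 measured nuclear genes, 7 pairs of called genes had at most 1 measured gene between them, a count made after the results were seen. In 3 of them both genes were lower in epiF3, namely AT1G73490 with AT1G73530, AT1G23130 with AT1G23140 (-1.44 and -1.43), and AT3G44610 with AT3G44630 (-1.44 and -3.86). In the other 4 pairs the genes differed in opposite directions. Pairs among AT1G23120, AT1G23130 and AT1G23140 share genes, so the 7 are not independent. Whether 7 is more than scattered calls would give was not tested. The pair described here, chosen from the same contrast, held the most negative single difference of the 7.

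Few genes had a profile near that of AT1G73490. Profiles were centred on the wild-type mean of each gene and compared by their root mean square difference over the 6 arrays, among 13511 other probe sets that name 1 gene. Since the members were chosen from the same contrast, the likeness is a description. The match used all 6 arrays, so a shared order of replicates partly follows from it. The nearest was AT1G23960, at 0.31 log2 units, with 2.52, 2.10 and 3.14 on epiF3 arrays, against 6.56, 6.75 and 7.08 on wild-type arrays. Like AT1G73490 it was highest on replicate 3 of each group. AT3G43740, a leucine-rich repeat protein gene, followed at 0.33 with 2.03, 2.05 and 2.16 on epiF3 arrays, against 6.44, 6.53 and 6.60 on wild-type arrays. Next were AT3G44630, of the TIR-NBS-LRR resistance genes, at 0.60, AT1G76960 at 0.63 and AT3G47250, a DUF247 protein gene, at 1.00. Their differences were -3.86, -5.29 and -5.81. Across these 5 genes no epiF3 array was above 3.14, and no wild-type array was below 6.34.

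By the same measure, the 5 nearest profiles to AT1G73530 lay closer to it, at 0.12 to 0.20 log2 units. AT4G25940 was nearest, at 0.12 log2 units, with 3.15, 3.31 and 3.11 on epiF3 arrays, against 4.68, 4.75 and 3.98 on wild-type arrays. AT1G33590 followed at 0.15 with 7.19, 7.36 and 7.29 on epiF3 arrays, against 8.48, 8.90 and 8.01 on wild-type arrays. In both, as in AT1G73530, the highest wild-type array was replicate 2 and the lowest was replicate 3. AT1G35710 (0.18), AT1G15790 (0.18) and PTI1-4 (0.20), a gene of the PTI1-like kinases, came next, with differences of -1.13, -1.39 and -1.15. In all 5, wild-type replicate 2 was the highest array and wild-type replicate 3 the lowest wild-type array, an order the match itself favours.

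By this measure, which counts the size of a difference as well as its shape, the 2 RNA-binding genes were 2.36 log2 units apart. Of 13512 probe sets naming 1 gene, 76 were nearer to AT1G73490 than AT1G73530 was. Seen from AT1G73530, 13496 were nearer to it than AT1G73490 was. Only 4 were within 1 log2 unit of AT1G73490, whereas 7807 were within that distance of AT1G73530, whose difference is smaller. A gene with little difference between groups can also lie that near AT1G73530, so being counted there does not mean a shared profile. These counts largely follow from the sizes of the 2 differences.

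**Figure D3:**
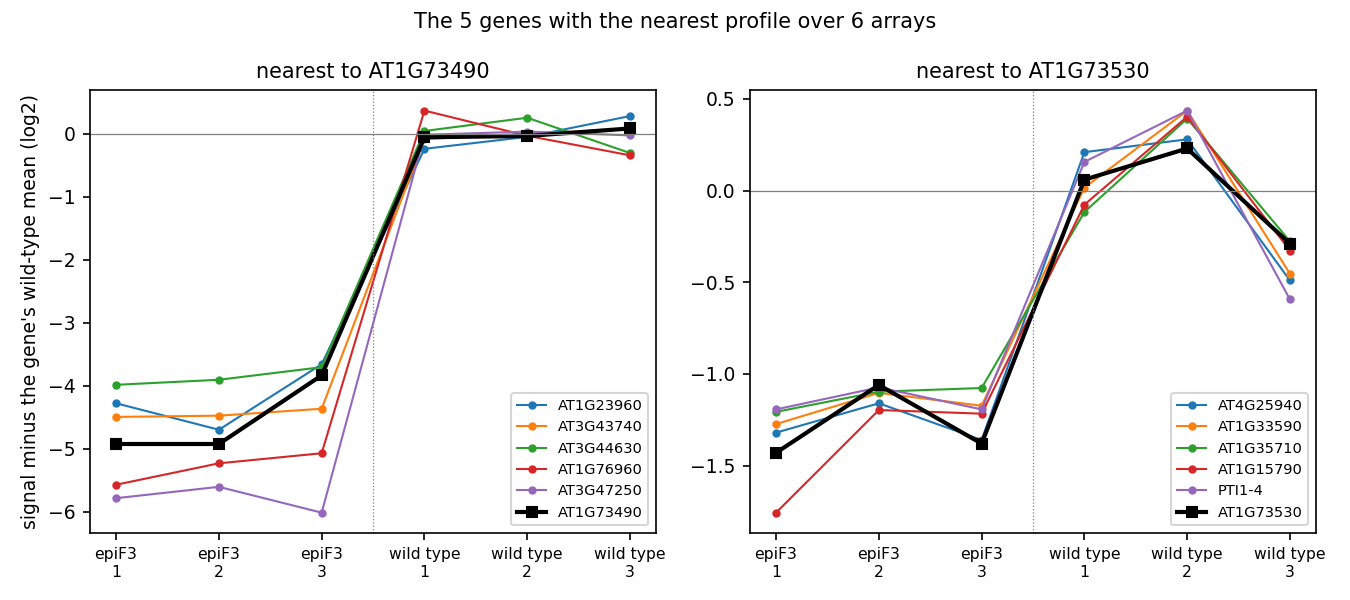
Signal minus the gene's own wild-type mean (log2) on 3 epiF3 and 3 wild-type arrays for AT1G73490 (left, black) and AT1G73530 (right, black), each with the 5 genes of nearest profile in colour; lines join the arrays of 1 gene. The left genes in colour have differences from -5.81 to -3.86. The right genes share a high wild-type replicate 2 and a low wild-type replicate 3, which matching on these arrays favours.

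The measured genes of a list around organelle RNA editing did not pass the limma threshold, which 0.598% of all probe sets passed. Of 45 nuclear genes listed as editing factors, plastid ribonucleoproteins and glycine-rich RRM proteins, 17 were measured under a name of their own. Of these, 0 rose and 0 fell, against 0.268% and 0.330% of all probe sets, so a count of 0 is near that share. An unadjusted limma p under 0.05 was found for 0, against 10.9% of all probe sets. Trended and robust moderation also called 0. Their differences ran from -0.40 to 0.17 with a median of -0.18, against 0.03 over all probe sets. Of the 17, 13 were negative, as were 44.3% of all probe sets. The median depended on epiF3 replicate 3 and was -0.04 without that array.

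By role, 10 of 17 listed plastid PPR and related editing factors were measured, with a median of -0.23 and 9 of 10 negative. Without epiF3 replicate 3 the median was -0.05 and 7 of 10 were negative. LPA66, the PPR protein that edits the same psbF transcript as ORRM6, had 5.35, 4.95 and 4.52 on epiF3 arrays, against 5.43, 5.39 and 5.18 on wild-type arrays. Its groups overlapped, and the difference was -0.40 with a standard error of 0.21 (limma adjusted p = 0.562). It was -0.19 without epiF3 replicate 3 and -0.60 without epiF3 replicate 1. OTP86, a factor for another plastid transcript, had 2.07, 2.08 and 2.33 on epiF3 arrays, against 2.37, 2.43 and 2.38 on wild-type arrays. Its groups did not overlap, by 0.04 log2 units, as for 1 of the 17 nuclear genes against 16.9% of all probe sets. The OTP86 values are near the dim end, and the difference was -0.23 (limma adjusted p = 0.573). RARE1, the PPR protein for the accD site, is not analysed here.

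Of 5 other ORRM genes 1 was measured, AT5G54580 (ORRM2, a mitochondrial editing protein). It had 7.15, 7.21 and 7.19 on epiF3 arrays, against 7.45, 6.70 and 6.89 on wild-type arrays, with a difference of 0.17 and a standard error of 0.20 (limma adjusted p = 0.772). Of 9 MORF genes 1 was measured, AT1G32580 (MORF5). Its epiF3 arrays had 5.69, 5.89 and 5.68, against 6.29, 5.83 and 5.60 on wild-type arrays, a difference of -0.16 (limma adjusted p = 0.787). Both genes overlapped between groups, and neither passed the test.

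Plastid ribonucleoproteins are abundant RRM proteins that bind and protect plastid transcripts, and 5 of 10 were measured. Their differences ran from -0.25 to 0.03. AT2G37220 (CP29B) had 9.71, 9.60 and 9.30 on epiF3 arrays, against 9.98, 9.96 and 9.43 on wild-type arrays, with a difference of -0.25 (limma adjusted p = 0.671). AT1G01080 had a difference of -0.18 (limma adjusted p = 0.718). Glycine-rich RRM proteins had 0 of 4 measured under a name.

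The plastid transcripts with sites that ORRM6 helps to edit were both measured. The psbF probe set had 10.50, 10.14 and 9.74 on epiF3 arrays, against 10.50, 10.50 and 10.35 on wild-type arrays. Replicate 3 was the lowest epiF3 array, the groups overlapped, and the difference was -0.33 with a standard error of 0.20 (limma adjusted p = 0.606). It was -0.13 without epiF3 replicate 3 and -0.51 without epiF3 replicate 1. For accD the signals were 7.63, 7.41 and 7.09 on epiF3 arrays, against 6.17, 7.89 and 6.83 on wild-type arrays. The accD difference of 0.41 with a standard error of 0.39 was 0.02 without the low wild-type replicate 1 and 0.88 without the high wild-type replicate 2, and the groups overlapped (limma adjusted p = 0.726). Neither transcript's level passed the test.

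**Figure D4:**
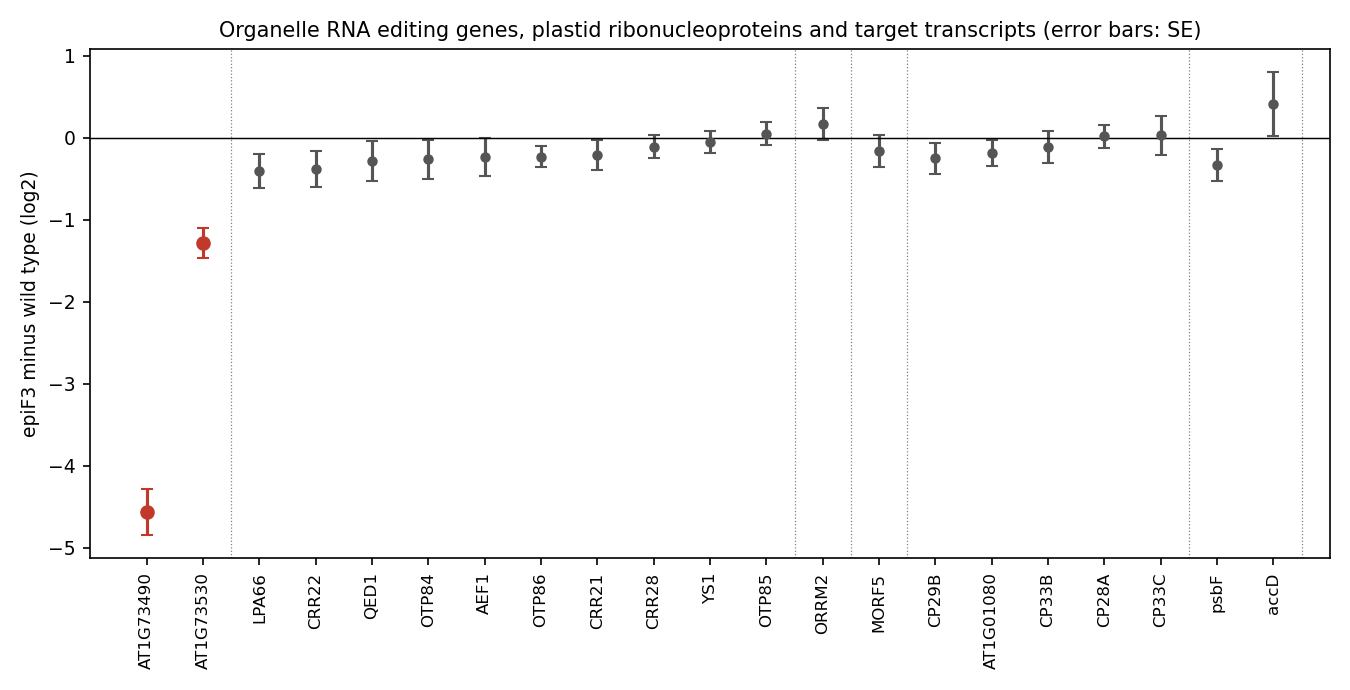
Difference of epiF3 minus wild type (log2, limma, bars are SE, 3 arrays a group) for both RNA-binding genes in red and, from left to right between dotted lines in grey, for plastid editing factors, ORRM2, MORF5, plastid ribonucleoproteins and the transcripts psbF and accD. The grey points lie between -0.40 and 0.41 and none passed the threshold. AT1G73490 and AT1G73530, chosen from this same contrast, lie at -4.56 and -1.28.

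Leaf markers were bright in both groups. Of 6 leaf markers 3 were measured, and RCA, the Rubisco activase gene, had 12.83, 12.80 and 12.47 on epiF3 arrays, against 12.90, 12.62 and 12.65 on wild-type arrays. The root hair gene EXPA7 averaged 2.52 in epiF3 and 2.29 in wild type, the root gene PYK10 averaged 4.17 in epiF3 and 4.16 in wild type, and the anther gene AMS averaged 2.33 in epiF3 and 2.23 in wild type. The differences of the 3 leaf markers were -0.02 to -0.26. LHCB4.1 had 11.97, 11.87 and 11.72 on epiF3 arrays, against 11.99, 12.17 and 12.17 on wild-type arrays (limma adjusted p = 0.542). All its epiF3 arrays lay below all wild-type arrays, as for 7.11% of all probe sets. Of the 6 measured markers 0 passed the limma threshold, against 0.598% of all probe sets. Seed markers had 0 of 2 measured.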

How the data were processed

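For each array the authors deposited log2 signals of all probe sets, made with RMA and the affy package per the submitters' processing notes, which state no version. That the scale is log2 was read from the values. The background method is not given in the sources used here. Array controls (64 probe sets) were set aside. Genes were named through the platform annotation by gene ID, and 13436 of 13513 probe sets with 1 gene were matched to RefSeq genes (TAIR10.1). Of the 22746 tested probe sets, 8730 were not listed in that annotation and so carried no gene name. Where a gene had several probe sets, the brightest was used.

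A linear model of group was fitted to the 22746 probe sets (lmFit and eBayes of limma 3.58.1, R 4.3.3, two-sided, no block). The test was checked on simulated arrays. Differences in the text come from this fit. Neighbours, lists and the rule for named genes (the pair, the 3 nearest measured genes on each outer side, any called neighbour, called or else the 2 lowest-p members of each list, and the 5 nearest profiles) were chosen with earlier results of these data known. A planned list of genes with RRM in their name had 0 measured members among 26 in the gene table, so it gave no value. Tables were handled in Python 3.11.15 with pandas 2.3.3 and numpy 2.4.6, and figures drawn with matplotlib 3.10.9. The number of arrays limits the precision. Sequences of the genes are not used here.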

Additional observations from a re-analysis of the deposited data

Results flagged for a closer look

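Hybridization controls are bacterial and phage transcripts added to each array, outside the comparison of plant genes. Their mean on epiF3 replicate 3 was 2.91 above the wild-type mean on the log2 scale. All 18 of these probe sets were highest on that array, which is also the epiF3 array with the highest AT1G73490 signal (3.93).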

How the results depend on the processing

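The differences of AT1G73490 and AT1G73530 moved by less than their epiF3 SDs of 0.63 and 0.2 under all 14 alternatives. With 1 array left out they ran from -4.92 to -4.37 and from -1.43 to -1.17. For AT1G73490 the move to -4.92 was larger than its wild-type SD of 0.076. The counts of 0 called neighbours and 0 called editing genes were also 0 under all 14, with 14 of 21 neighbours and 16 of 19 editing genes left after removing the dimmest 40%. The number of called probe sets, 136, was 205 with trended and robust moderation, 449 with array weights, 74 with the replicate block, and 33 to 402 when single arrays were dropped; the cause was not tested. Deviations of same-numbered arrays from their group means had correlations of -0.0775, -0.0424 and -0.0453, so the numbers were not taken to pair the samples, and the replicate block changed no call of the pair, the neighbours or the editing genes. Median centring moved the median of all differences to 0.102, against 0.03 without it.

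Of 25 other named genes, 3 changed sign. Of the 15 named as neighbours or list genes, 0 passed the threshold under any alternative. Median centring shifts all genes alike, and AT1G73470 had 0.03 after it and -0.17 to 0.08 with 1 array left out. AT1G73480 had 0.07 after that centring, 0.01 after quantile normalization, 0.01 after cyclic loess, and -0.48 to 0.25 with 1 array left out. MORF5 had -0.31 to 0.03.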
